A study of Ailuropoda melanoleuca with 25 samples.

Results

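The comparison described here set 2 libraries of stage II day 8 against 2 libraries of stage I day 24, the latest labelled time of the first culture stage, in the reprogramming of giant panda (Ailuropoda melanoleuca) fibroblasts. The libraries were chosen by sample title, and they are 4 of the 25 RNA-seq libraries of the series. The series covers primary fibroblasts (PF) and their reprogramming with non-integrating episomal vectors to induced pluripotent stem cells (GPiPSC). Every library, the stem cell lines included, has primary fibroblasts as its labelled source. The comparison addresses what changed in the transcriptome between the last labelled day of the first stage and day 8 of the second.

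The stage II libraries are labelled day 8 of stage II, with replicates 1 and 2. The stage I libraries are labelled day 24 of stage I, with replicates 1 and 2. The labels do not give the culture medium of either stage, the vectors' factors, or any treatment that differs between the stages. Groups outside the comparison were used only to describe the same models elsewhere. They were GPiPSC (LB with 3 libraries and XR with 2), PF (LB and XR), stage I day 8, A83-01 day 16 with its control day 16, BACL-CHIR99021 with BACL control, and BACL LB GPiPSC, each of the last 8 groups with 2 libraries. A83-01 inhibits TGF-beta type I receptors and CHIR99021 inhibits GSK3, a kinase that restrains WNT signalling. The title BACL-CHIR99021 does not itself say whether CHIR99021 was added or left out. Comparisons with that group therefore give no direction for an effect of the molecule. What LB, XR or BACL stand for is not in the labels. They also do not say whether replicates came from separate cultures or animals, so each p-value speaks only of how these particular libraries vary, and that variation may be technical.

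Reprogramming of fibroblasts is known to pass through the loss of mesenchymal expression, a gain of epithelial features and, later, activation of the pluripotency network. Episomal vectors replicate outside the chromosomes and are diluted as cells divide, so lines that keep growing must rely on their own genes. Cultures at intermediate stages are usually mixtures of cells that have gone different distances. In such bulk libraries, fewer cells of a type and less RNA per cell cannot be told apart.

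Each library had an estimated count for each of 22924 gene models, of which 17225 passed the filter on low counts and were tested. The identifiers are not paired with gene names in the files, and a search of the available RefSeq gene table found 0 of them. The labelled cell types could therefore not be checked against markers, and no pathway could be named. The models are described instead by their level, their place among consecutively numbered models and their values in comparisons that share no library with this one. Near-identical models may share reads, so a single model, or a run of similar neighbours, is an uncertain count.

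The 4 libraries held 13299313 to 13913766 estimated counts, within the 8627983 to 14890260 of all 25. A floor of 3 counts corresponded to 0.215 to 0.325 CPM in them (CPM, counts scaled to library size with TMM normalization), and this limit covers counting error only. The replicates of stage I day 24 stood further apart than those of stage II day 8. The chi-square per degree of freedom between replicates was 12.2 in stage II day 8 and 102 in stage I day 24. The SD of the log2 difference between replicates was 0.559 in stage II day 8 and 0.959 in stage I day 24. In stage I day 24 the difference between replicates also moved with coding length. Replicate 2 minus replicate 1 had a median log2 difference of -0.11 among the shortest models (126 to 414 bases) and 0.53 among the longest (2955 to 20340 bases). The same medians ran only from -0.03 to 0.05 over the 10 length classes in stage II day 8. The part of this difference between libraries in the results was not tested, and counts are given below without each stage I library.

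Stage II day 8 differed from stage I day 24 in 5462 of the 17225 models tested, which is 31.7% (edgeR quasi-likelihood test, Benjamini-Hochberg adjusted p under 0.05). Of these, 2183 rose (12.7%) and 3279 fell (19.0%). In the same fit, all libraries of stage II day 8 were above all libraries of stage I day 24 for 4888 models (28.4%), and below them for 5645 (32.8%). The losses were also larger. Over 2-fold changes numbered 1453 upwards (8.44%) and 3044 downwards (17.7%), and over 8-fold changes numbered 151 upwards (0.877%) and 820 downwards (4.76%). Over every model tested, the median log2 fold change was -0.15. A fitted fold for a model at 0 counts in both libraries of a group is not a bound. With such models set at the floor of 3 counts, 137 of the 151 and 695 of the 820 remained over 8-fold, and the median of all models was -0.12.

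Under log2(TPM + 0.1) with limma, 1165 models rose and 2926 fell, so 28.5% of the calls were upwards, against 40.0% in the edgeR fit, and the median of all models was -0.35. Testing against a 2-fold change left 339 upwards and 1136 downwards, of which 23.0% were upwards. Without stage I day 24 replicate 1 the counts were 2933 upwards and 3969 downwards. Without stage I day 24 replicate 2 they were 1182 upwards and 1562 downwards, with a median of all models of 0.00. Leaving out a stage II day 8 library gave 1525 upwards and 2153 downwards without replicate 1, and 963 upwards and 1247 downwards without replicate 2. More models fell than rose in each of these settings.

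**Figure D1:**
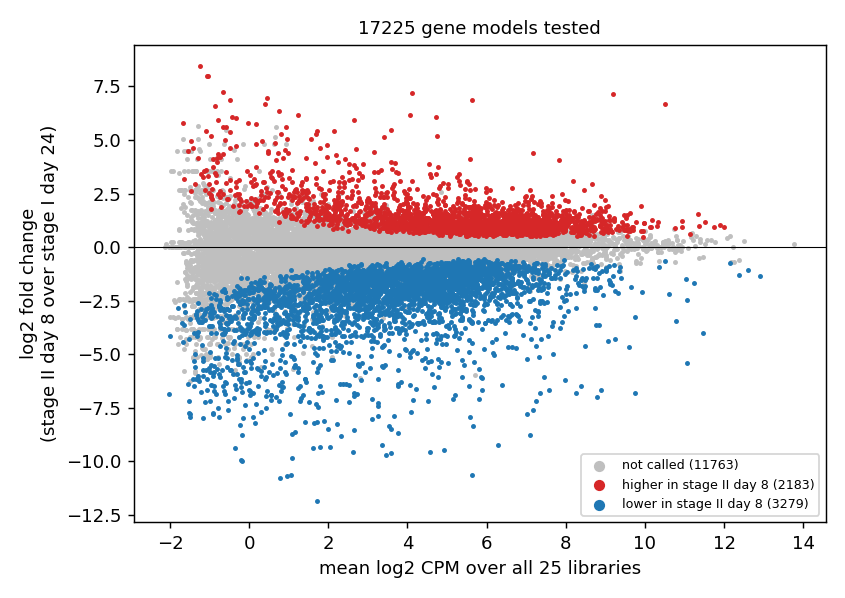
Each point is 1 of the 17225 tested gene models. The x axis gives its mean level over all 25 libraries as log2 CPM, and the y axis gives the fitted log2 fold change of stage II day 8 over stage I day 24, with the 2183 called higher and the 3279 called lower in colour. The called models above the 0 line lie mostly at high levels, while those far below it lie mostly at low and middle levels.

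The direction of the changes differed with the level of the model. In the highest of 10 classes by mean level (log2 CPM of 6.90 to 13.8), 30.3% of models rose and 12.1% fell, and the median log2 fold change was 0.33. In the fourth class from the bottom, 7.96% rose and 26.2% fell. In the lowest class, 3.77% rose and 11.1% fell. Coding length made a smaller difference: 6.53% rose and 11.0% fell among the shortest models, and 17.0% rose and 21.3% fell among the longest. Low models rest on few counts, so the shares of the classes also differ with the precision of the test.

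The number of models in use was lower in stage II. At 1 CPM or more, 13426 and 13252 models were counted in the stage II day 8 libraries, against 14072 and 14615 in the stage I day 24 libraries. Models at 0 counts numbered 5054 and 5171 in stage II day 8, against 4523 and 4014 in stage I day 24. The libraries of the groups did not overlap in either number. With 2 libraries against 2, the smallest p of an exact two-sided permutation test is 0.333, above 0.05, and no other test of these numbers was run.

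The composition of the libraries shifted with the called models. The 2183 models that rose held 34.1% and 34.5% of all counts in stage II day 8, against 18.6% and 19.1% in stage I day 24. The 3279 models that fell held 3.86% and 3.24% in stage II day 8, against 12.03% and 17.5% in stage I day 24. These shares describe models chosen by this same contrast. In libraries the contrast did not use, the models that rose held 26.0% to 30.0% of counts in the 5 GPiPSC libraries and 12.2% to 21.2% in the 4 PF libraries. The models that fell held 7.79% to 9.32% in GPiPSC, and in PF 23.8% and 27.7% (LB) and 21.3% and 16.1% (XR). The lower XR PF value lay below that of stage I day 24 replicate 2. Control day 16 held 29.9% and 30.7% of its counts in the models that fell, more than any PF library.

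The most abundant changes are shown by the 2 models per direction with the largest difference in mean CPM among called models whose libraries did not overlap. The model evm.model.HIC_ASM_7.203, with a coding length of 735 bases, stood at 3455 and 4202 CPM in stage II day 8, against 53.2 and 20.6 CPM in stage I day 24. Both stage II libraries were far above both stage I day 24 libraries. The means were 3828 ± 528 CPM in stage II day 8 and 36.9 ± 23.1 CPM in stage I day 24 (SD, n = 2 each), with a log2 fold change of 6.70 ± 0.49 (SE; edgeR adjusted p = 3.79e-08). The model was not new to the culture: it averaged 593 CPM in LB PF, 6739 in XR PF and 5495 in stage I day 8. Stage I day 24 was thus a low point between high levels at stage I day 8 and at stage II day 8, and the model was at 3.38 CPM in LB GPiPSC and 11.9 in XR GPiPSC.

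The same model, evm.model.HIC_ASM_7.203, also differed in both comparisons labelled with small molecules, in libraries that the stage II comparison did not use. It averaged 10.5 CPM under A83-01 and 246 CPM in control day 16, a log2 fold change of -4.55 ± 0.45 (SE; edgeR adjusted p = 1.11e-05). It averaged 1374 CPM in BACL-CHIR99021 and 1.15 CPM in BACL control, a log2 fold change of 10.21 ± 0.59 (SE; edgeR adjusted p = 2.97e-09). In GPiPSC relative to PF it was lower, with a log2 fold change of -8.30 ± 0.36 (SE; edgeR adjusted p = 5.05e-13).

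The model evm.model.HIC_ASM_19.267, with a coding length of 2229 bases, stood at 7918 and 8855 CPM in stage II day 8, against 5004 and 3169 CPM in stage I day 24. The libraries did not overlap, and stage II day 8 was the highest of the 12 groups in TMM-scaled CPM. In TPM it was not: stage II day 8 had 1448 and 1441 TPM, against 1663 and 1682 TPM in XR GPiPSC. The means were 8386 ± 663 CPM in stage II day 8 and 4086 ± 1297 CPM in stage I day 24 (SD, n = 2 each), with a log2 fold change of 1.04 ± 0.23 (SE; edgeR adjusted p = 0.00282). GPiPSC averaged 4302 (LB) and 4773 (XR) CPM and PF 2757 (LB) and 2853 (XR) CPM, a log2 fold change of 0.69 ± 0.16 (SE; edgeR adjusted p = 0.000691). The call in stage II rested on the spread shared by all groups: fitted on the 4 libraries alone, its adjusted p was 0.247, within a range of 1.06e-05 to 0.601 over 15 alternatives.

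Among the models that fell, evm.model.HIC_ASM_1.498, with a coding length of 4356 bases, had the larger fold change of the 2 named, and the smaller difference in mean CPM. It stood at 457 and 428 CPM in stage II day 8, against 6105 and 8217 CPM in stage I day 24. Both stage II libraries were more than 10-fold below both stage I day 24 libraries. The means were 443 ± 20.6 CPM in stage II day 8 and 7161 ± 1494 CPM in stage I day 24 (SD, n = 2 each), with a log2 fold change of -4.02 ± 0.30 (SE; edgeR adjusted p = 4.5e-08). It had averaged 3362 (LB) and 5570 (XR) CPM in PF and 3268 CPM in stage I day 8, and reached 8369 CPM in control day 16. In GPiPSC it was at 0.407 (LB) and 0.633 (XR) CPM. Stage II day 8 was therefore below all fibroblast and stage I groups and still far above the established lines. BACL-CHIR99021 libraries held 28.2 and 26.2 CPM, against an average of 0.280 CPM in BACL control.

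The model evm.model.HIC_ASM_14.220, with a coding length of 1401 bases, stood at 4735 and 5177 CPM in stage II day 8, against 14695 and 9801 CPM in stage I day 24. The libraries did not overlap. The means were 4956 ± 312 CPM in stage II day 8 and 12248 ± 3461 CPM in stage I day 24 (SD, n = 2 each), with a log2 fold change of -1.31 ± 0.27 (SE; edgeR adjusted p = 0.00162). It was lower still in GPiPSC, at 736 (LB) and 1380 (XR) CPM, against 10881 (LB) and 9735 (XR) CPM in PF, a log2 fold change of -3.35 ± 0.19 (SE; edgeR adjusted p = 2.15e-11). Fitted on the 4 libraries alone, its adjusted p in stage II was 0.156, within a range of 2.08e-06 to 0.512 over 15 alternatives. The calls of evm.model.HIC_ASM_7.203 and evm.model.HIC_ASM_1.498 held under all 15.

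**Figure D2:**
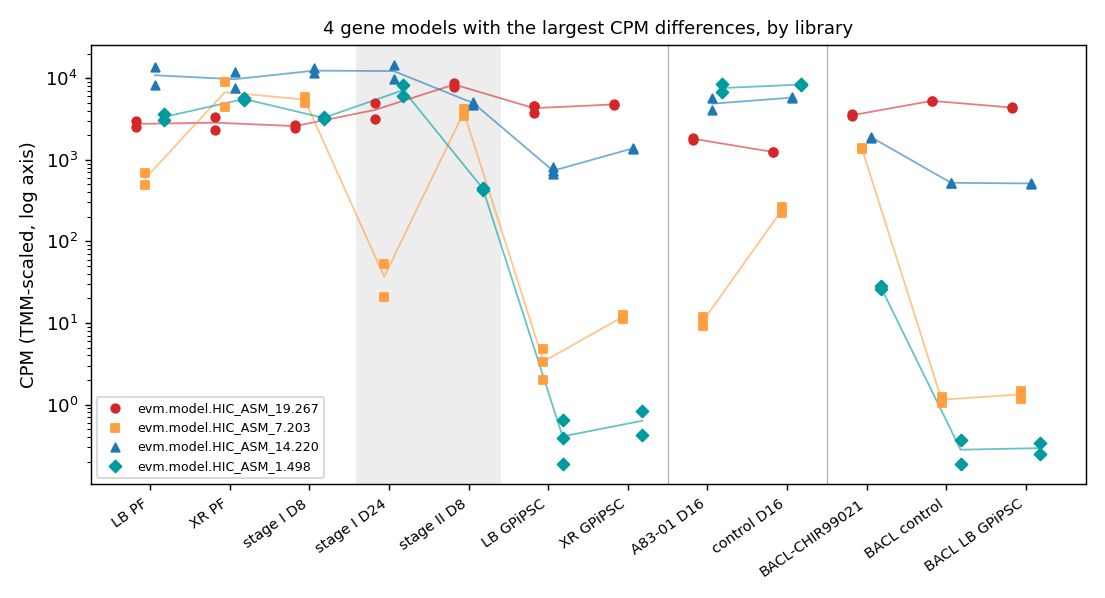
The 4 models with the largest differences in mean CPM, 2 that rose and 2 that fell, are plotted with CPM on a log10 axis and 1 point per library in each of the 12 groups. Lines join group means, and grey shading marks stage I day 24 and stage II day 8. The 2 stage II day 8 points of evm.model.HIC_ASM_7.203 (3455 and 4202 CPM) lie near its stage I day 8 points, with stage I day 24 (53.2 and 20.6 CPM) far below both.

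The 50 models with the largest differences in mean CPM were taken per direction as a description. Those that rose had log2 fold changes of 0.60 to 7.13 with a median of 1.26, and 39 of them were over 2-fold and 2 over 8-fold. They held 8.87% and 9.08% of counts in stage II day 8, against 4.55% and 4.48% in stage I day 24. Those that fell had log2 fold changes of -0.73 to -8.79 with a median of -2.18, and 47 of them were over 2-fold and 18 over 8-fold. They held 1.53% and 1.38% of counts in stage II day 8, against 5.66% and 6.92% in stage I day 24. In these lists the losses were steeper than the gains. Entry required, as for the named models, at least 10 counts summed over the lower group. Models absent from stage I day 24 could therefore not enter the gains. The lists thus cannot show whether gains were mostly of models already in use. Both lists were chosen on this contrast and were not matched in size of difference. The smallest difference was 770 CPM among the gains and 341 CPM among the losses. In GPiPSC relative to PF, 49 of the 50 that fell were also lower and 1 was higher, where 33.6% of all models tested were lower and 33.3% higher. Of the 50 that rose, 28 were higher in GPiPSC than in PF, 13 were lower and 9 were not called.

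Some models were at or near 0 counts in a single stage. Of the 2183 models that rose, 15 had 0 counts in both stage I day 24 libraries. Of the 3279 that fell, 150 had 0 counts in both stage II day 8 libraries. Per library, models at 0 counts were also more numerous in stage II day 8, as given above. With a minimum level added, a set of 23 models had 3 counts or fewer in both stage II day 8 libraries and 10 CPM or more in both stage I day 24 libraries. The opposite pattern, 3 counts or fewer in both stage I day 24 libraries and 10 CPM or more in both stage II day 8 libraries, was found in 0 models. The 23 models averaged up to 131 CPM in stage I day 24, with a median of 32.9 CPM. Against the floor of 3 counts per library, their median level was at least 101-fold lower in stage II day 8. All 23 were called, as the choice of levels makes likely. Of them, 0 reached 10 CPM on average in GPiPSC, 7 did in PF, 8 in stage I day 8, 9 in control day 16 and 9 in A83-01 day 16. Of all 17225 models tested, 8785 to 9040 were at 10 CPM or more in each GPiPSC library. The same number was 8753 to 9413 in PF, 8407 and 8757 in stage I day 8, 9379 and 9390 in control day 16, and 9650 and 9445 in A83-01 day 16.

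The called models were then read in 4 comparisons that share no library with stage II day 8 or stage I day 24. The first was GPiPSC against PF, in which 66.9% of all models were called. Of the 2183 models that rose in stage II, 1207 were higher in GPiPSC than in PF, which is 55.3% of them, against 33.3% of all models tested, and is 21.1% of the models higher in GPiPSC. A further 384, or 17.6%, were lower in GPiPSC, against 33.6% of all models. Of the 3279 that fell, 1789 were lower in GPiPSC than in PF, which is 54.6% of them and 30.9% of the models lower in GPiPSC. A further 585 of those that fell, or 17.8%, were higher in GPiPSC. Both lists thus held more models moving the same way between the ends of the series than all models did, and each also held models moving the other way. Over the 15 alternatives the shares ran from 48.6% to 70.1% for models higher in both and from 48.3% to 70.0% for models lower in both, while those of all models ran from 27.7% to 41.4% for higher and from 24.6% to 36.4% for lower. Called models differ from others in level, and its part in these shares was not tested.

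The called models were next read in the comparison of the first days in culture. Stage I day 8 against PF called 51.6% of all models. Of the models that rose in stage II, 841 (38.5%) had been higher in stage I day 8 than in PF, against 26.0% of all models, and 242 (11.1%) had been lower, against 25.6% of all models. Of those that fell in stage II, 1337 (40.8%) had been lower in stage I day 8 than in PF and 781 (23.8%) had been higher. These shares depended on the fit, and those of all models given here are from the main fit only. Over the 15 alternatives, the share of models higher in both ran from 25.5% (log2(TPM + 1)) to 52.0% (without stage I day 24 replicate 1). The share of models lower in both was 20.9% without stage I day 24 replicate 2, which is below the 25.6% of all models, and 53.8% without stage I day 24 replicate 1. Of the 820 models that fell by more than 8-fold, 250 (30.5%) had been higher in stage I day 8 than in PF and 231 (28.2%) had been lower, while 504 (61.5%) were lower and 123 (15.0%) higher in GPiPSC than in PF. The day 8 shares of these 820 were near the 26.0% and 25.6% of all models.

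The comparisons labelled with small molecules differed from each other. BACL-CHIR99021 against BACL control called 16.1% of all models. Of the 151 models that rose by more than 8-fold in stage II, 69 (45.7%) were higher in BACL-CHIR99021 than in BACL control, against 11.7% of all models, and 3 (1.99%) were lower. Those 69 are 3.43% of the 2010 models higher in BACL-CHIR99021. The median log2 fold change of the 151 in that comparison was 2.06, or 1.42 with models at 0 counts set at the floor, against 0.00 for all models. Over the 15 alternatives the share ran from 40.0% to 61.9%, against 8.63% to 16.6% of all models. Among all 2183 models that rose, 371 (17.0%) were higher in BACL-CHIR99021, and among the 3279 that fell 461 (14.1%) were, both nearer to the share of all models than the 151 were. Whether the shares of these lists differ from each other was not tested.

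A83-01 against control at day 16 called 6.22% of all models. Of those that rose in stage II, 191 (8.75%) were higher under A83-01 than in control day 16, against 4.19% of all models, and 88 (4.03%) were lower, against 2.04% of all models. Of those that fell, 85 (2.59%) were higher and 85 (2.59%) were lower under A83-01. Of the 151 that rose by more than 8-fold, 16 were higher and 22 (14.6%) were lower under A83-01. The model evm.model.HIC_ASM_7.203 was among these 22.

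**Figure D3:**
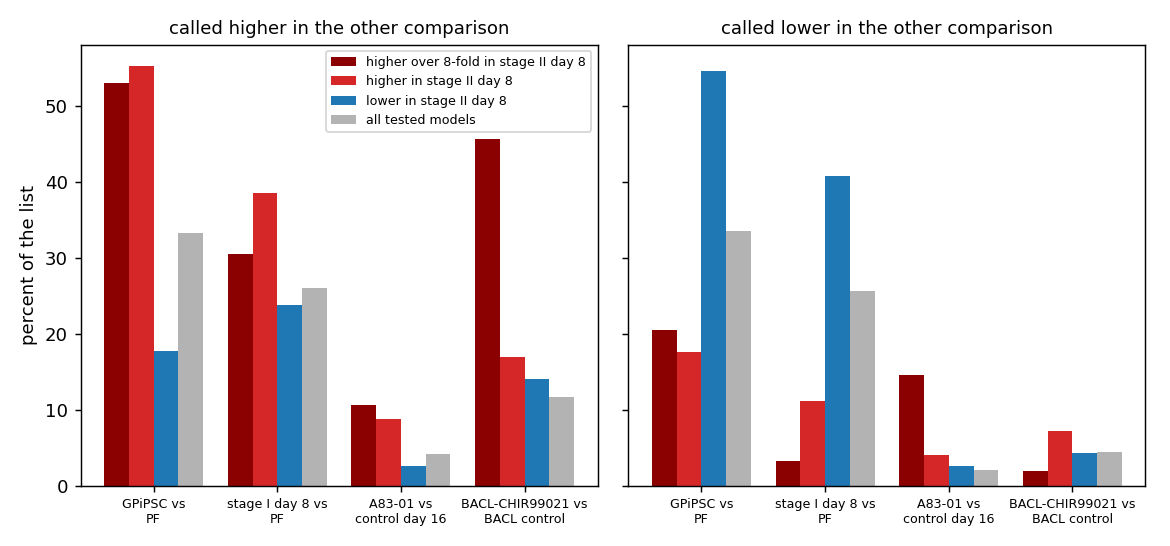
The bars give the share, in percent, of models called higher or lower in each of the 4 comparisons that share no library with stage II day 8 or stage I day 24, for the lists that rose and fell in stage II and for all models tested. The list over 8-fold higher in stage II has 45.7% of its 151 models higher in BACL-CHIR99021, against 11.7% of all models.

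Levels over the groups placed the same lists along the series. The 151 models that rose by more than 8-fold had a median level (log2 CPM, mean over libraries) of -2.18 in LB PF, -2.06 in XR PF, -1.01 in stage I day 8, -0.93 in stage I day 24, 2.52 in stage II day 8, 0.22 in LB GPiPSC and 0.09 in XR GPiPSC. By this median, stage II day 8 was above the established lines as well as above stage I. By share of counts it was above GPiPSC, at 0.701% and 0.746% against 0.108% to 0.198%. It was not above stage I day 8, at 0.768% and 0.758%, or XR PF, at 0.816% and 1.19%. A large part of these shares was 1 model, evm.model.HIC_ASM_7.203. It had 47642 and 48437 counts in stage I day 8, of 12840244 and 13870366 in all. In XR PF it had 54979 and 97308 counts, and in stage II day 8 34878 and 38785. The comparison by share of counts with stage I day 8 and XR PF thus does not describe the list as a whole. Outside the series of stages, the median level of the list was 1.03 in BACL-CHIR99021 and -1.32 in BACL control. Of the 151 models, 66 (43.7%) had their highest group mean in stage II day 8 and 23 (15.2%) in BACL-CHIR99021, against 17.1% and 5.45% of all models. The choice of the list on stage II day 8 favours that group.

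The 820 models that fell by more than 8-fold had a median level of 1.75 in LB PF, 0.87 in XR PF, 1.52 in stage I day 8, 2.28 in stage I day 24, -1.29 in stage II day 8, -1.09 in LB GPiPSC and -0.75 in XR GPiPSC. By this median, their level in stage II day 8 was near that in the established lines. By share of counts it was lower, at 0.167% and 0.137% in stage II day 8, against 0.406% to 0.601% in GPiPSC. Control day 16 and A83-01 day 16, at 2.47 and 2.53, stood with stage I day 24. Of the 820 models, 208 (25.4%) had their highest group mean in stage I day 24, against 5.46% of all models. Their lowest group mean was in stage II day 8 for 248 (30.2%), against 17.1% of all models. The choice of the list on these groups favours both shares. Where groups tied for the lowest mean, here and below, only the first in a fixed order was counted.

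Over the full lists, the 2183 models that rose had a median level of 4.43 in LB PF, 5.14 in XR PF, 5.28 in stage I day 8, 5.27 in stage I day 24, 6.42 in stage II day 8, 5.47 in LB GPiPSC and 5.29 in XR GPiPSC. Of them, 1308 (59.9%) had their highest group mean in stage II day 8, against 17.1% of all models, a peak that the choice of the list favours. The level against GPiPSC also moves with the TMM factors, which were 0.747 and 0.664 in stage II day 8 and 1.24 to 1.33 in GPiPSC, and the shares of counts given above, 34.1% and 34.5% against 26.0% to 30.0%, differed less. The 3279 models that fell had a median level of 4.09 in LB PF, 3.56 in XR PF, 3.19 in stage I day 8, 3.44 in stage I day 24, 1.44 in stage II day 8, 2.31 in LB GPiPSC and 2.57 in XR GPiPSC. Of them, 1378 (42.0%) had their lowest group mean in stage II day 8, against 17.1% of all models. These lists were chosen on stage II day 8 and stage I day 24, so the values in those groups are a description.

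**Figure D4:**
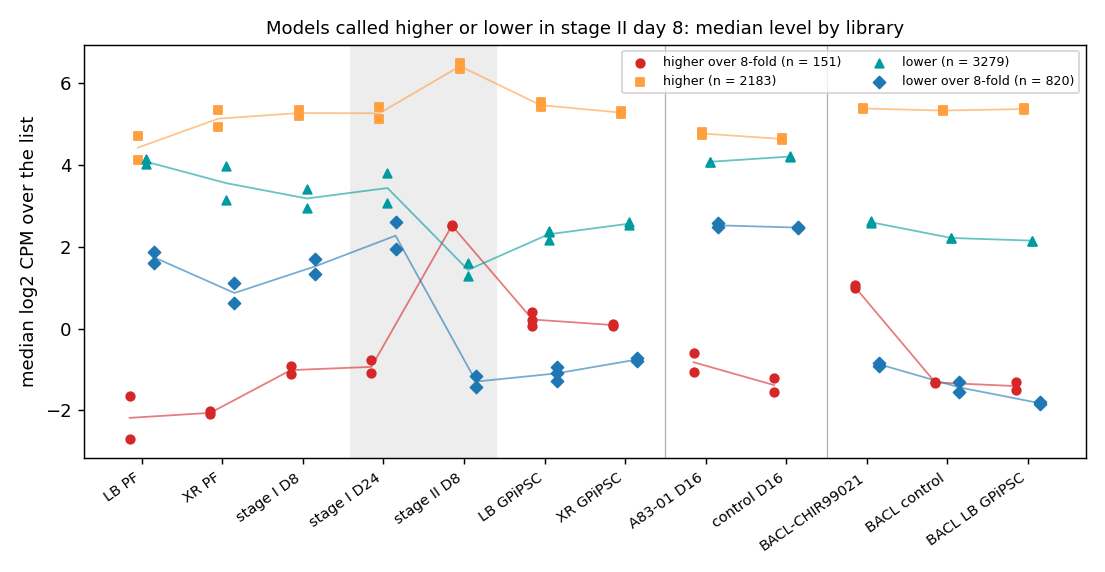
Each point is the median log2 CPM of a list of models in 1 library, with the 12 groups along the x axis. Lines join group means, and grey shading marks stage I day 24 and stage II day 8. The models that rose by more than 8-fold stand at 2.52 in stage II day 8 and at -0.93 in stage I day 24, with BACL-CHIR99021 at 1.03, and those that fell by more than 8-fold stand at -1.29 in stage II day 8 and at 2.28 in stage I day 24.

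Models that fell were found side by side more often as long runs than models that rose. The numbers in the identifiers were taken to follow each scaffold, which no annotation was at hand to check, and a run was counted where consecutive tested models were all called in 1 direction. Runs of 6 or more numbered 1 upwards and 17 downwards, and the longest had 6 models upwards and 10 downwards. More models were called downwards, which by itself gives longer runs, and the part of this in the difference was not tested. The number of long downward runs depended on the fit: 3 were found with only the 4 libraries, 2 without stage I day 24 replicate 2, 1 without stage II day 8 replicate 2 and 4 without stage II day 8 replicate 1.

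The run on scaffold HIC_ASM_16 from model 1970 to model 1978 was lost most completely. Its 7 tested models summed to 11.3 and 14.5 CPM in stage II day 8, against 566 and 419 CPM in stage I day 24. The groups did not overlap, and 3 of the 7 models were at 0 counts in both stage II libraries. The sums were 27.1 to 59.8 CPM in PF, 190 and 155 CPM in stage I day 8, and 0.0644 to 0.872 CPM in GPiPSC. All 7 models were called lower under every alternative. The peak of this run in stage I day 24 was above both fibroblasts and established lines.

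The run on scaffold HIC_ASM_13 from model 725 to model 734 ran against the series. Its 7 tested models, with coding lengths of 675 to 1272 bases, summed to 24.2 and 22.4 CPM in stage II day 8, against 167 and 154 CPM in stage I day 24. Yet all 7 were higher in GPiPSC than in PF, against 33.3% of all models, and the GPiPSC sums were 773, 731 and 942 CPM in LB and 1278 and 1450 CPM in XR. Stage I day 24 was between PF and GPiPSC, while stage II day 8 was in the range of PF, which had 104 and 21.8 CPM in LB and 28.4 and 27.4 CPM in XR. The run was also low in stage I day 8, at 31.4 and 27.2 CPM. It was at 30.4 and 29.9 CPM in control day 16 and at 42.3 and 40.3 CPM in A83-01 day 16. Among the stage groups, stage I day 24 alone was thus raised above PF. BACL-CHIR99021 libraries held 130 and 127 CPM, against 441 and 435 CPM in BACL control, and 4 of the 7 models were called lower there, against 4.43% of all models. Without either stage II library or without stage I day 24 replicate 2, the stage II calls numbered 4 of the 7.

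The run of 9 tested models on scaffold HIC_ASM_13 from model 1006 to model 1016 summed to 52.3 and 51.1 CPM in stage II day 8, against 476 and 416 CPM in stage I day 24. The sums were 1402 and 1123 CPM in stage I day 8 and 71.1 to 105 CPM in GPiPSC. In stage II day 8, model 1006 alone held 39.9 and 35.9 CPM of the sum. The median log2 CPM over the 9 models was -1.99 and -1.43 in stage II day 8, 2.02 and 2.94 in stage I day 24, and -2.71 in each GPiPSC library. The sum thus placed stage II day 8 below GPiPSC. The median rested on 1 and 2 counts in the stage II day 8 libraries, under the floor of 3 counts, and does not place them against GPiPSC. The 6 tested models on scaffold HIC_ASM_4 from model 601 to model 610 summed to 22.8 and 18.0 CPM in stage II day 8, against 207 and 194 CPM in stage I day 24. Their sums were 59.0 to 151 CPM in PF and 31.8 to 45.2 CPM in GPiPSC. The only upward run, on scaffold HIC_ASM_0 from model 909 to model 916, summed to 2521 and 2881 CPM in stage II day 8, against 1703 and 1433 CPM in stage I day 24, and 2 of its 6 calls held with only the 4 libraries.

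**Figure D5:**
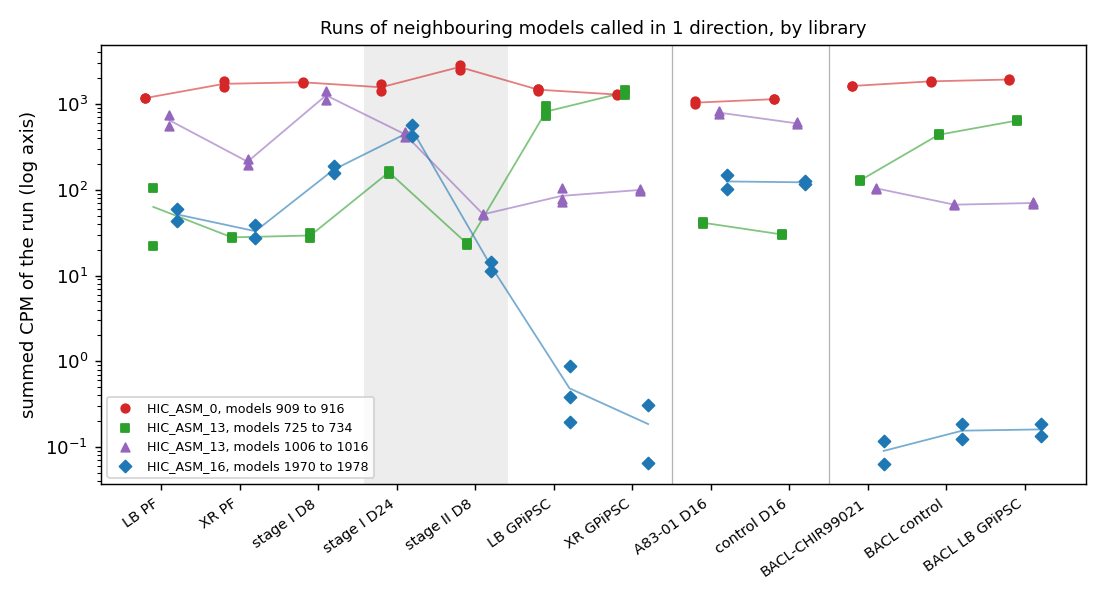
The summed CPM of the tested models in runs of consecutively numbered models is plotted per library on a log10 axis for the upward run and for the 3 downward runs with at least 5 models over 8-fold, with the 12 groups along the x axis. Lines join group means, and grey shading marks stage I day 24 and stage II day 8. The run on HIC_ASM_16 is at 11.3 and 14.5 CPM in stage II day 8 and at 566 and 419 CPM in stage I day 24, and the run on HIC_ASM_13 from model 725 is highest in the GPiPSC libraries.

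The same counts were taken over whole scaffolds. Among the 21 scaffolds with at least 100 tested models, which hold 17068 of them, 19 had more models that fell and 2 had more that rose. Scaffold HIC_ASM_16 had 257 of 1346 models that rose (19.1%) and 150 that fell (11.1%), and its median log2 fold change was 0.20. Scaffold HIC_ASM_18 had 10 of 180 that rose (5.56%) and 49 that fell (27.2%), with a median of -0.54. The replicates of stage I day 24 differed on the same scaffolds: replicate 2 minus replicate 1 had a median log2 difference of -0.24 on HIC_ASM_16 and 0.30 on HIC_ASM_18. Over the 21 scaffolds, this difference and the median log2 fold change had a Pearson correlation of -0.87. Both values use the stage I day 24 libraries, and the part of the replicates in the scaffold pattern was not tested. The median of stage II day 8 was below 0 on 17 scaffolds against replicate 1 alone, and on 16 against replicate 2 alone. The median of HIC_ASM_16 was -0.02 on the log2(TPM) scales, so its direction depended on the scale.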

How the data were processed

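The labels' protocols name an NEBNext Ultra kit for library preparation. Reads were processed with kallisto, per the submitters' processing notes, and its version, index, build and strand setting were not given in the sources used here. Per the file headers, the columns of each deposited table are length, effective length, estimated count and TPM for every gene model. The authors' deposited estimated counts were the basis of the tests, after rounding to whole numbers. The deposited TPM values (scaled by the authors to effective length and library total) entered alternatives only. Model lengths are mostly multiples of 3 (91.6%) and are therefore named coding lengths. Between 3.17% and 4.48% of models per library had a count that was not whole.

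All 25 libraries entered 1 edgeR 4.0.16 fit of 12 groups (R 4.3.3, filterByExpr, TMM, robust quasi-likelihood F test, 13 residual degrees of freedom), adjusted by Benjamini-Hochberg over 17225 models. The depth of the 4 compared libraries, 13299313 to 13913766 counts, puts 3 counts at 0.215 to 0.325 CPM. Log2 CPM used a prior count of 2. Named models were taken from called models whose libraries do not overlap and whose lower group sums to at least 10 counts. They were the 2 per direction with the largest mean CPM difference. The lists of 50 per direction kept the same minimum count. The comparison, lists and rules were chosen with earlier results of these data known, and the runs, switches and scaffolds described in the text were picked after their values were seen.

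As alternatives, the fit was repeated with DESeq2 1.42.0, RLE size factors, only the 4 libraries, no filter, a replicate block, limma 3.58.1 on log2(TPM + 1) and log2(TPM + 0.1), effective-length offsets, glmTreat against 2-fold, and each library left out. A group left with 1 library was taken to vary as the remaining groups do. Crossed replicate numbers and a covariate for deviations shared between replicates were added after the data were seen. Simulated counts with known changes were used to test the edgeR step. No sequence was matched to the identifiers.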

Additional observations from a re-analysis of the deposited data

How the results depend on the processing

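The models that rose numbered 2183 and those that fell 3279. With only the 4 libraries they were 591 and 1295, on log2(TPM + 1) 1225 and 2451, on log2(TPM + 0.1) 1165 and 2926, with glmTreat against 2-fold 339 and 1136, and with the covariate added later 3544 and 4259. Leaving out each library in turn gave 963 to 2933 and 1247 to 3969, the lowest without stage II day 8 replicate 2 and the highest without stage I day 24 replicate 1. The cause of these moves was not tested. Whether replicate numbers pair the samples is not in the labels. The deviations of same-numbered libraries had a correlation of -0.42 across models, which are not independent. With 2 libraries a group, this value cannot decide the pairing. With replicate number as a block the counts were 321 and 973, and with crossed numbers, added later, 2071 and 3624. A model called in the opposite direction occurred 0 times in the 15 alternatives. No named model changed direction, and 8 of 60 values of named models lost the call, all of evm.model.HIC_ASM_19.267 and evm.model.HIC_ASM_14.220. Of the counts of models shared with other comparisons, 143 stayed within 1.5 times the value in the text and 112 did not. With 2 libraries a group, the spread comes mostly from other groups, and low models rest on few counts.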
